A study of Homo sapiens with 14 samples.

Results

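Retinoic acid is a signal made from vitamin A that patterns the early embryo, and the genes that make it, destroy it and read it were examined here as a set of 10: RDH10, ALDH1A2 and ALDH1A3 for synthesis, CYP26A1, CYP26B1 and CYP26C1 for clearance, CRABP2 for binding inside the cell, and RARA, RARB and RARG for the receptors. They were taken by symbol, without regard to measured values, and all 10 were found among the 63677 gene IDs of each bulk RNA-seq table. The bulk data were 12 libraries of H9, an established human embryonic stem cell (hESC) line. The groups were hESC (hESC, 2 libraries, for which the labels give no construct), endoderm with dCAS9-KRAB and no sgRNA (DE_ctl, 3), endoderm with dCAS9-KRAB and an sgRNA to LTR5 (DE_CRISPRi, 3), foregut control (FG_ctl, 2) and foregut with the LTR5 sgRNA (FG_CRISPRi, 2). dCAS9-KRAB is a cutting-dead Cas9 fused to a repressor domain, delivered by lentivirus to puromycin-selected pools, and LTR5 elements are the promoters of the endogenous retrovirus HERVK. Endoderm was made over 3 days with 100 ng/ml Activin A and CHIR-99021 at 5 and then 0.5 µM, and foregut by carrying endoderm on with a pancreatic differentiation kit. No retinoid is named among the agents, and the make-up of the kit medium was not given in the sources used here. The titles of the foregut libraries disagree with their status labels, which describe cells without sgRNA at an earlier stage; the titles were followed, and whether the foregut controls carried dCAS9-KRAB was not given. A further experiment measured single nuclei of 1 preparation of H9 gastruloids, aggregates of 800 cells a well harvested at 72 h. CHIR-99021 at 3 µM was given before aggregation and again at its start, there together with a ROCK inhibitor at 10 µM. Of this preparation, 3646 nuclei and 17493 genes were in the table and 8 of the 10 genes among them.

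In this pathway RDH10 oxidises retinol to retinaldehyde, and ALDH1A2 and ALDH1A3 turn retinaldehyde into retinoic acid. The CYP26 enzymes hydroxylate and so remove retinoic acid, CRABP2 carries it to the nucleus, and the receptors RARA, RARB and RARG bind DNA as partners of RXR proteins and switch target genes when the ligand is present. In gut endoderm and in the axis of the embryo, neighbouring zones of synthesis and clearance set how much of the signal a cell meets, and CYP26A1 and RARB are textbook targets of the receptors themselves.

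The receptors are known to bind direct repeats of a 6-letter hexamer with 5 letters between the copies (DR5), and among the 10 genes it was the promoters of these textbook targets that held such a repeat. In the RefSeq promoter windows (GRCh38.p14, 250 bases before to 50 after each start), 9 of the 10 genes were matched, with 16 windows. On both strands, the search took as a copy the hexamer AGGTCA, its variant AGTTCA, and the forms with another leading letter, namely GGGTCA and then also GGTTCA. A DR5 was found in 2 of the 16 windows, and in 31 of all 35116 windows (0.0883%). The stretches below are those of the 2 windows with a DR5. Capitals mark the copies of the hexamer, and both stretches are written on the plus strand.
RARB, chr3:25428204-25428232: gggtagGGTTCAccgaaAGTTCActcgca
CYP26A1, chr10:93073797-93073825: taaagaTGAACTttgggTGAACTaattgt
In RARB the repeat lay 53 to 37 bases before the start and read along the gene. In CYP26A1 it lay 90 to 74 bases before the start and read on the opposite strand, so that the capitals show the reverse complement of AGTTCA in both copies. On GRCh37, the build of the bulk files, the RARB repeat (chromosome 3, 25469701 to 25469717) fell within 11 annotated RARB transcripts and was UTR exon in 3 of them, and the CYP26A1 repeat (chromosome 10, 94833560 to 94833576) lay in the UTR of 1 CYP26A1 transcript; neither touched coding sequence. Both repeats were inside accessible peaks of the gastruloid ATAC-seq, which measures open chromatin. Of the 16 windows, 12 overlapped such a peak, against 58.4% of all windows, and 11 of the 31 windows with a DR5 did. Repeats with 2 or 1 letters between copies (DR2, DR1) were in none of the 16 windows and in 0.0399% and 0.131% of all. A match of letters is a description of the window and does not show binding.

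In the libraries themselves, depth ran from 11583063 to 37152434 reads on genes, so that 3 reads, taken as the floor of detection, stood for 0.081 to 0.259 CPM, the counts-per-million scale. Mitochondrial genes took 8.3% to 34.66% of reads. Genes with at least 1 read numbered 15005 to 17926 in foregut libraries and 19678 to 20973 in all others, so the foregut steps below compare libraries of unlike complexity, and the part of this in the results was not tested. For RNA-seq the study states 2 or more biologically independent replicates, but the labels do not say which libraries came from separate cultures. The p-values therefore measure only the spread between libraries. Reads on LTR5_Hs and LTR5B, the targets of the sgRNA, were, in CPM of gene reads, 22.84 to 24.8 in DE_ctl against 12.0 to 16.83 in DE_CRISPRi, and 18.03 to 21.51 in FG_ctl against 10.02 to 13.26 in FG_CRISPRi. In foregut the 2 targets differed. LTR5B was at 12.41 and 9.29 in FG_ctl and at 5.59 and 4.28 in FG_CRISPRi. LTR5_Hs was at 9.1 and 8.75 in FG_ctl and at 4.43 and 10.86 in FG_CRISPRi, so replicate 2 with the sgRNA was not lower. Copies annotated with both names count for each, so the 10.86 and 4.28 of that library share reads, and its combined value was 13.26. LTR5_Hs without such copies was not counted. Markers of stem cells (POU5F1, NANOG, SOX2, DPPA4) summed to 917 to 1253 CPM in hESC. Endoderm markers (SOX17, GATA6, CXCR4, CER1, FOXA2) rose from 18.5 to 31.5 CPM in hESC to 4509 to 5153 in DE_ctl. The stem cell markers summed to 778 to 1010 CPM there, most of it POU5F1, at 652 to 826 CPM against 291 to 575 in hESC. On average, SOX2 fell from 158 to 23.2 CPM, DPPA4 from 456 to 107 and NANOG from 37.8 to 26.45. By the edgeR test, 2 of these 4 markers were called lower and 0 higher. Of the foregut markers, 4 were matched, and 0 of 4 passed the test in FG_ctl against DE_ctl, although PDX1, a pancreas and duodenum marker, reached 24.7 to 27 CPM in FG_ctl. The name foregut is thus that of the labels.

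**Figure D1:**
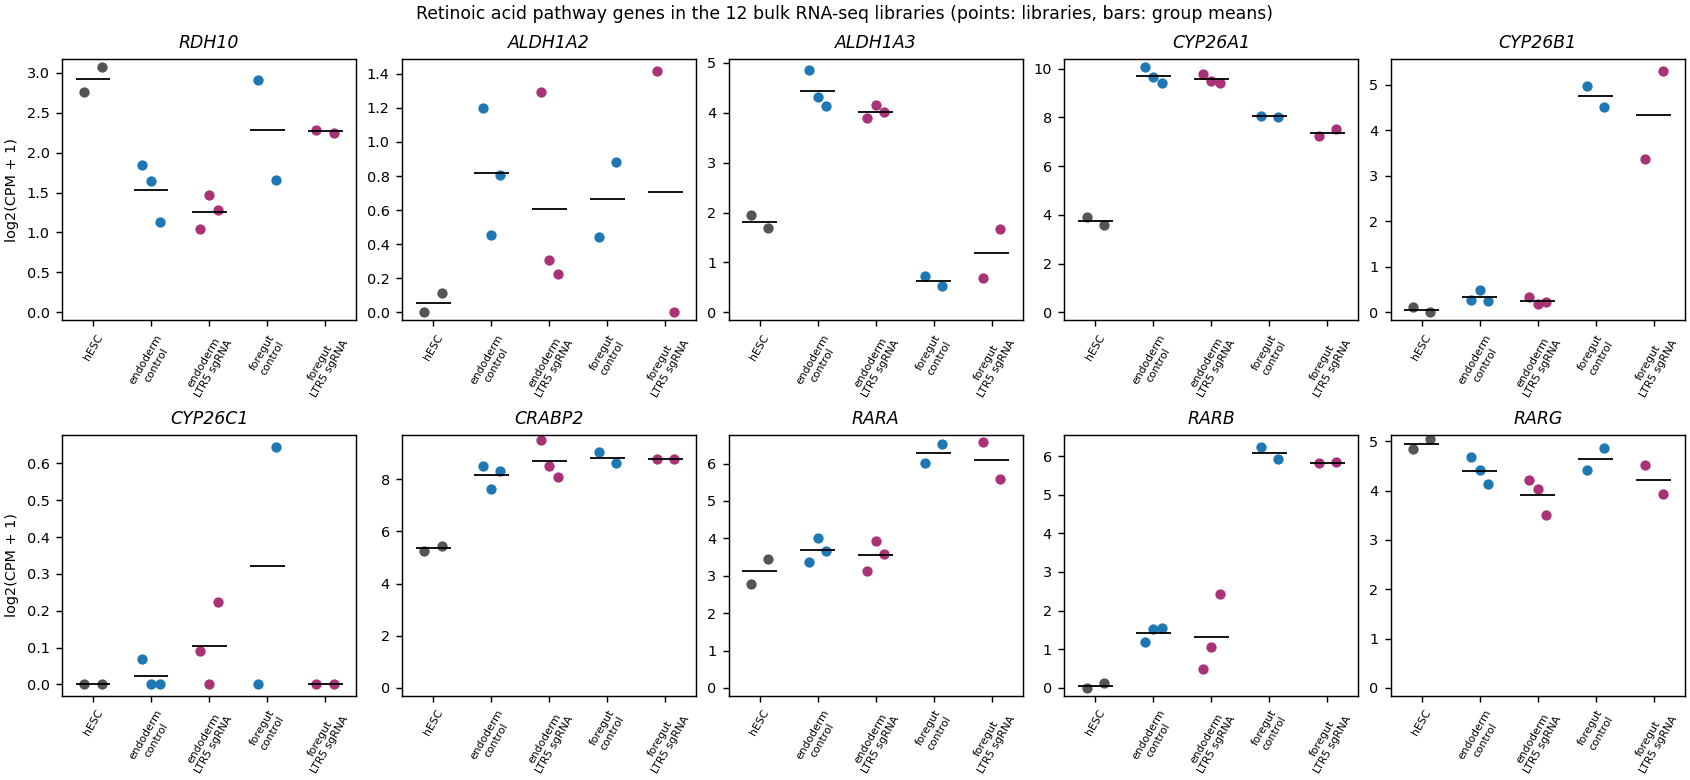
log2(CPM + 1) of each of the 10 genes (y axes, 1 panel a gene, each with its own scale) in the 12 bulk libraries, grouped on the x axis by hESC, endoderm and foregut with and without the LTR5 sgRNA; points are libraries and horizontal bars are group means. CYP26A1 and ALDH1A3 are highest in endoderm, whereas CYP26B1, RARA and RARB are highest in foregut.

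From hESC to endoderm, the set moved mainly upwards, led by the clearing enzyme CYP26A1. With edgeR's quasi-likelihood test, Benjamini-Hochberg adjustment over all genes and a fold change over 2, 5 of the 9 genes tested rose and 1 fell, beside 26.0% of all 20818 genes called in either direction. The median log2 fold change of the 9 was 2.91, against 0.045 over all genes tested. In bulk RNA, fewer cells of a type and less RNA per cell cannot be told apart, which applies to every level below.

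Among the synthesis genes, ALDH1A3 stood at 2.85 and 2.22 CPM in hESC and at 28.0, 18.9 and 16.7 CPM in DE_ctl. All endoderm controls were above both hESC libraries. The log2 fold change was 3.10 (SE 0.30, edgeR adjusted p = 1.05e-06).
RDH10, the enzyme of the step before, went the other way, from 5.79 and 7.40 CPM in hESC to 2.59, 2.12 and 1.19 CPM in DE_ctl. The groups did not overlap, and the log2 fold change was -1.70 (SE 0.33, edgeR adjusted p = 6.72e-04).
ALDH1A2, the main retinoic acid source of the trunk mesoderm, was near the floor throughout. It held 0 and 0.0823 CPM in hESC (2 reads in all) and 1.30, 0.368 and 0.75 CPM in DE_ctl (46 reads). The ratio of the pooled reads was 18.9 (95% counting interval 4.94 to 161). It passed the edgeR test (adjusted p = 0.0037), but not without hESC replicate 1 (adjusted p = 0.0740) and not in 1 fit over all 12 libraries (adjusted p = 0.131).

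Among the clearing enzymes, CYP26A1 rose from 14.1 and 10.9 CPM in hESC to 1076, 798 and 675 CPM in DE_ctl. The groups lay far apart, with a log2 fold change of 6.11 (SE 0.28, edgeR adjusted p = 4.67e-10), which stayed between 5.91 and 6.31 over 14 alternative settings. Per kilobase of annotated exon, CYP26A1 reached 287 ± 69.2 CPM (SD, n = 3) in DE_ctl, and ALDH1A3 3.98 ± 1.12. CYP26B1 had 2 reads in hESC and 16 in DE_ctl, a ratio of 6.57 with a counting interval of 1.54 to 58.9, and did not pass (edgeR adjusted p = 0.134). CYP26C1, for which the control endoderm held 1 read and hESC 0, was too low to test. CYP26A1 and CYP26C1 are neighbours on chromosome 10 (GRCh37, 94833232 to 94837642 and 94820555 to 94829297), and share exons with an annotated readthrough gene, so that part of their reads could have been left unassigned.

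CRABP2, the carrier, stood at 36.9 and 42.5 CPM in hESC and at 366, 196 and 314 CPM in DE_ctl, without overlap (log2 fold change 2.91, SE 0.26, edgeR adjusted p = 4.85e-07). The receptors differed from each other. RARB, of which hESC libraries held 0 and 0.0823 CPM, stood at 1.30, 1.89 and 1.94 CPM in DE_ctl, a ratio of pooled reads of 40.2 (counting interval 10.9 to 337; edgeR adjusted p = 4.90e-05). RARA stood at 5.84 and 9.99 CPM in hESC and 9.22 to 15.1 in DE_ctl, with overlapping groups and no call (edgeR adjusted p = 0.09997). RARG, at 27.8 and 32.3 CPM in hESC and 16.5 to 24.6 in DE_ctl, had groups that did not overlap, yet a log2 fold change of -0.52 that did not pass (SE 0.22, edgeR adjusted p = 0.0714).

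From endoderm to foregut, the make-up of the set turned over: ALDH1A3 and CYP26A1 fell, and CYP26B1, RARA and RARB rose. In FG_ctl against DE_ctl, 3 of the 10 genes tested rose and 2 fell by the edgeR test, beside 29.0% of 21466 genes called; the median log2 fold change was 0.89 for the set and -0.091 over all genes. In FG_CRISPRi against DE_CRISPRi, measured in other libraries, the called genes were also these 5, each in the same direction, out of 9 tested, beside 26.3% of 20735 genes called (median 0.45, against -0.137 over all genes). No library is shared by these 2 steps.

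ALDH1A3 dropped to 0.649 and 0.436 CPM in FG_ctl, below every other group except FG_CRISPRi, whose libraries held 0.617 and 2.18 CPM. The log2 fold change from endoderm to foregut was -5.29 (SE 0.43, edgeR adjusted p = 3.76e-05) in the controls and -3.42 (SE 0.57, adjusted p = 0.00369) in the sgRNA groups. RDH10 was uneven in FG_ctl, with 6.49 CPM in replicate 1 and 2.16 in replicate 2, the latter within the range of DE_ctl. Its rise of 1.12 on the log2 scale did not pass (edgeR adjusted p = 0.147), but did without FG_ctl replicate 2 (1.78, adjusted p = 0.0134), while without replicate 1 the value was 0.106. In the sgRNA groups RDH10 stood at 3.88 and 3.76 CPM in foregut and at 1.06 to 1.77 in endoderm, without overlap but also without a call (1.46, edgeR adjusted p = 0.1002; called without FG_CRISPRi replicate 1, adjusted p = 0.0398, or replicate 2, adjusted p = 0.0420, and in 1 fit over all libraries, adjusted p = 0.0497). ALDH1A2 stayed low and scattered, with 0.357 and 0.847 CPM in FG_ctl and 1.67 and 0 CPM in FG_CRISPRi, and no bulk library exceeded 1.67 CPM.

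CYP26A1 stood at 264 and 261 CPM in FG_ctl, below all endoderm libraries and above both hESC libraries. The log2 fold change against DE_ctl was -1.70 (SE 0.23, edgeR adjusted p = 6.65e-04), and against their own endoderm the sgRNA libraries, at 149 and 184 CPM, had -2.16 (SE 0.25, adjusted p = 7.00e-04).
CYP26B1, which removes retinoic acid in many later tissues, appeared at this stage, with 30.5 and 21.9 CPM in FG_ctl after 0.188 to 0.414 in DE_ctl. This was 1792 reads against 16, a ratio of 92.7 with a counting interval of 57.0 to 163 (log2 fold change 6.55, SE 0.42, edgeR adjusted p = 1.16e-05). In FG_CRISPRi the libraries differed from each other, at 9.32 and 38.4 CPM, both above every endoderm library (log2 fold change 6.96, SE 0.74, edgeR adjusted p = 4.98e-04). Per kilobase, CYP26A1 remained the higher of these enzymes in FG_ctl, at 88.6 ± 0.639 CPM against 5.41 ± 1.25 for CYP26B1 (SD, n = 2). All 22 foregut control reads of CYP26C1 were in replicate 2 (0.564 CPM); it was not called (edgeR adjusted p = 0.217), and was without replicate 1 (adjusted p = 0.0218).

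Among the receptors, RARB, which is both a receptor and a receptor target, rose to 74.7 and 59.2 CPM in FG_ctl and to 55.1 and 56.9 CPM in FG_CRISPRi. No endoderm library exceeded 4.37 CPM. The log2 fold change was 5.29 (SE 0.29, edgeR adjusted p = 5.91e-06) in the controls and 4.94 (SE 0.74, adjusted p = 0.00227) in the sgRNA groups.
RARA reached 64.1 and 91.0 CPM in FG_ctl and 94.8 and 47.0 in FG_CRISPRi, above all endoderm libraries, with log2 fold changes of 2.69 (SE 0.28, edgeR adjusted p = 1.41e-04) and 2.71 (SE 0.37, adjusted p = 0.00154). Exons of RARA overlap 3 antisense genes, among them RARA-AS1, and the strand setting of the counting was not given in the sources used here, so their reads may not be separate. RARG, at 20.5 and 28.3 CPM in FG_ctl, was not called (log2 fold change 0.25, 95% interval -0.37 to 0.87), and CRABP2 stood at 519 and 396 CPM, above the 3 endoderm controls but not called (0.65, edgeR adjusted p = 0.0956).

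The order of the receptors per kilobase of exon was therefore not the same at each stage. In hESC it was RARG at 5.86 ± 0.624 CPM per kilobase, then RARA at 1.67 ± 0.620 and RARB at 0.00435 ± 0.00616 (SD, n = 2). In FG_ctl it was RARA at 16.4 ± 4.004, then RARB at 7.09 ± 1.16 and RARG at 4.76 ± 1.07 (SD, n = 2). These orders are descriptions, and differences between receptors were not tested.

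**Figure D2:**
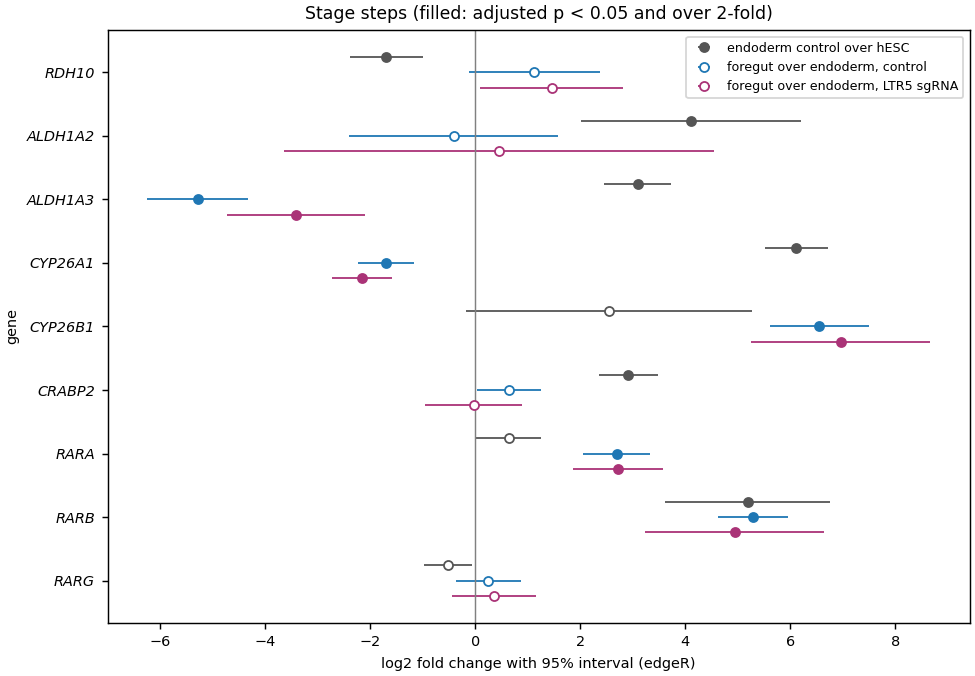
Log2 fold changes (x axis) with 95% intervals of 9 of the genes (rows, without CYP26C1) for hESC to endoderm, control endoderm to control foregut, and the same step with the LTR5 sgRNA; filled points passed the edgeR test with a fold change over 2. CYP26A1 and ALDH1A3 lie to the right in the step to endoderm and to the left in both steps to foregut.

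The other genes of the pathway were read from 3 lists of textbook members, 19 for uptake, storage and other enzymes, 11 for other binding proteins, receptors and cofactors, and 20 for genes that respond to retinoic acid, of which 19 were matched. In the step from hESC to endoderm, where 26.0% of all genes were called, 1 of 14 tested genes of the uptake and enzyme list rose and 2 fell, and of the 11 binding proteins and receptors 2 rose and 0 fell, both shares below that of all genes. LRAT, which stores retinol as esters, fell from 105 to 10.9 CPM on average (log2 fold change -3.23, SE 0.22, edgeR adjusted p = 2.19e-08), and DHRS3, which turns retinaldehyde back into retinol, from 4.69 to 1.65 CPM. The binding proteins and receptors that rose were RXRG, an RXR partner, which stood at 0.148 CPM in hESC and at 41.6 in DE_ctl, and CRABP1, from 95.5 to 187 CPM. Of 16 response genes tested, 5 rose and 3 fell. TSHZ1 and RARRES2 were among those that fell.

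In FG_ctl against DE_ctl, where 29.0% of all genes were called, 7 of 15 uptake and enzyme genes rose and 1 fell, with a median log2 fold change of 2.00. DHRS3 rose from 1.65 to 476 CPM (log2 fold change 8.15, SE 0.37, edgeR adjusted p = 2.65e-06), and BCO2, a carotenoid-cleaving enzyme, from 0.0767 to 6.32 CPM. Of the 11 binding proteins and receptors 1 rose and 3 fell, with RXRG back at 0.0162 CPM, CRABP1 at 58.7 CPM and the coactivator NCOA2 lower by 1.46 on the log2 scale (SE 0.28, edgeR adjusted p = 0.00372).
Of the 18 response genes tested, 12 rose and 3 fell, with a median of 4.57 against -0.091 over all genes. HOXB1, a hindbrain patterning gene with known retinoic acid response elements, went from 0.133 to 103 CPM, and NR2F1, an orphan nuclear receptor, from 0.139 to 64.9 CPM. In the sgRNA groups, where 26.3% of all genes were called, the step gave 6 higher and 0 lower of 13, 1 and 1 of 11, and 9 and 2 of 16, in the order of the lists. The share of binding proteins and receptors called was below that of all genes. DHRS3 stood there at 556 CPM in foregut after 2.54 in endoderm and HOXB1 at 111 after 0.0319, and PPARD, a receptor that also takes fatty acids, rose by 1.71 on the log2 scale (SE 0.40, edgeR adjusted p = 0.0153).

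**Figure D3:**
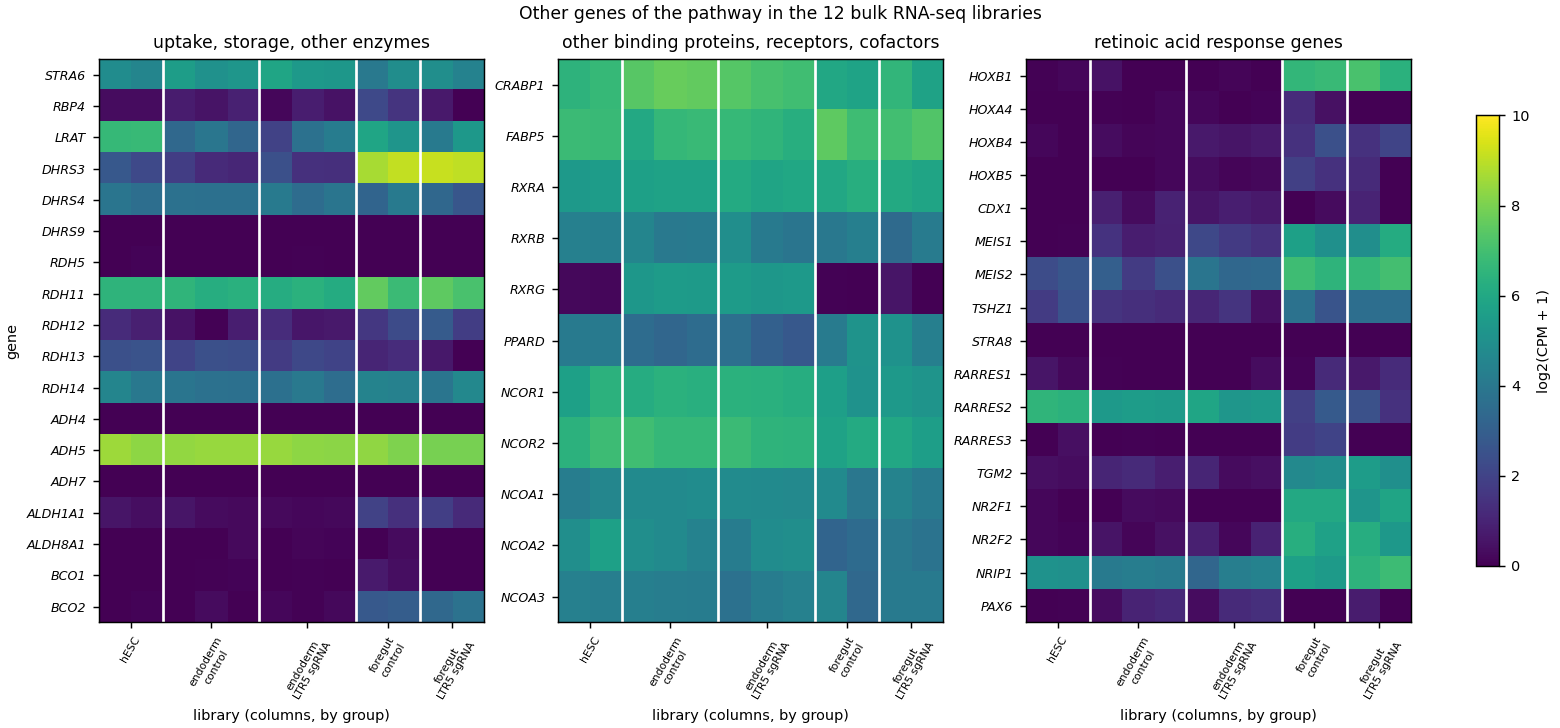
Colour gives log2(CPM + 1) of other genes of the pathway (rows, 1 panel a list) in the 12 bulk libraries (columns, white lines between groups). The HOXB1 and NR2F1 rows are near 0 in hESC and endoderm and high in both foregut groups.

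Cells of other kinds could be present at each stage, and their markers moved with some of these steps. In DE_ctl, mesoderm markers (TBX6, MESP1, HAND1, MEOX1, TWIST1) summed to 22.1 to 46.1 CPM, against 0.781 to 1.12 in hESC, with MEOX1 at 0 in all DE_ctl libraries. Liver markers (ALB, AFP, APOA1) rose from at most 1.01 CPM in DE_ctl to 692 to 768 CPM in FG_ctl, with ALB at 0 there. Neural markers (SOX1, PAX6, IRX3, ZIC2) fell from 150 to 207 CPM in DE_ctl to 4.23 to 6.23 in FG_ctl. Most of the sum in DE_ctl was ZIC2, at 125.4 to 178.5 CPM. SOX1 (0.299 to 0.375 CPM) and PAX6 (0.249 to 1.25 CPM) were already low in DE_ctl, and were at 0 in FG_ctl. The part of these cells in the changes of the 10 genes was not tested.

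For each of the 6 genes whose group means spanned more than 2 on the log2(CPM + 1) scale, the closest profiles over the 12 libraries were sought among 55665 named genes, by the root mean square difference after centring. CYP26A1 was closest to NTN4 (0.408), PRDM1 (0.422) and PDGFRA (0.489), and ALDH1A3 to TTC39B (0.317), PIK3CB (0.322) and GBE1 (0.33). RARB was closest to FOXA1 (0.439), a foregut transcription factor, then NPPB (0.468) and ANKRD1 (0.55), and RARA to RARA-AS1 (0.232), GSN (0.293) and FHAD1 (0.295). CYP26B1 was closest to IL32 (0.291), KCTD16 (0.296) and SPTLC3 (0.309), and CRABP2 to GADD45A (0.265), EMP3 (0.298) and TNFSF9 (0.302). The profiles are dominated by the stage of the library, which all these genes share.

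The comparison at the centre of the study, with and without the LTR5 sgRNA, gave no call for any of the 10 genes. None of them overlaps an LTR5_Hs or LTR5B copy. Of 1033 such copies, the nearest lay 335.5 kb from ALDH1A2, 517.2 kb from CRABP2 and 943.3 kb from ALDH1A3, and the farthest of the nearest copies 5113.5 kb from RDH10.
In endoderm, 0 of 9 genes tested were called, beside 0.0343% of 20407 genes (7 genes), and limma voom and DESeq2 also called 0 of the set. An unadjusted edgeR p under 0.05 was found for 0 of the 9, beside 1057 of the 20407 genes. The smallest edgeR adjusted p was 0.9855. The largest difference was that of CRABP2, at 719, 365 and 270 CPM with the sgRNA and 366, 196 and 314 CPM without, with overlapping groups and a log2 difference of 0.64 (95% interval -0.0415 to 1.32). Beside these values, summed markers of other cells differed between the same libraries without overlap: mesoderm markers were at 22.1 to 46.1 CPM in DE_ctl and 63.7 to 101 in DE_CRISPRi, with MEOX1 at 0 in both groups, and stem cell markers at 778 to 1010 and 489 to 758 CPM. By the edgeR test, 0 of the 4 markers tested in each list were called. Singly, HAND1 (11.7 to 25.1 against 36.2 to 52.3 CPM), NANOG and DPPA4 did not overlap. TBX6, MESP1, TWIST1, POU5F1 and SOX2 did. The part of these markers in the values of the 10 genes was not tested. CYP26A1 stood at 881, 713 and 685 CPM with the sgRNA, within the range of the controls, and its interval of -0.57 to 0.29 leaves out a change of 2-fold either way. The intervals of ALDH1A3 (-0.95 to 0.044), RARA (-0.68 to 0.50) and RARG (-0.99 to 0.0285) also lay within 2-fold, whereas those of ALDH1A2 (-1.92 to 1.20), CYP26B1 (-2.24 to 1.29), RARB (-1.15 to 1.51) and RDH10 (-1.27 to 0.38) did not. RARB was most scattered with the sgRNA, at 0.396, 1.1 and 4.37 CPM.

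In foregut, 0 of 10 genes were called with edgeR, beside 0.165% of 20044 genes (33 genes), and 0 with limma voom or DESeq2. On simulated counts, the edgeR test of this comparison called 2 of 100 genes changed 2-fold and 51 of 100 changed 4-fold. CYP26A1 alone of the 10 had an unadjusted edgeR p under 0.05, beside 699 of the 20044 genes. It stood at 264 and 261 CPM in FG_ctl and at 149 and 184 CPM in FG_CRISPRi, so that both sgRNA libraries were below both controls. The log2 difference was -0.66 (SE 0.31, 95% interval -1.27 to -0.048), with an edgeR adjusted p of 0.9996 (0.268 to 1 over 14 alternatives, where the difference ran from -0.82 to -0.508). RARB was also lower in both sgRNA libraries, at 55.1 and 56.9 against 74.7 and 59.2 CPM (-0.26, 95% interval -0.96 to 0.43, edgeR adjusted p = 0.9996). How many of all genes had foregut groups apart in this way was not counted. Beside these values, markers of gut identity differed between the same libraries: PDX1 was called lower, from 25.9 ± 1.66 CPM in FG_ctl to 5.26 ± 3.49 in FG_CRISPRi (SD, n = 2; edgeR adjusted p = 0.00218), as was CDX2, a hindgut marker, from 18.4 ± 8.59 to 2.71 ± 1.48 CPM (adjusted p = 9.92e-04). The liver gene AFP averaged 95.9 ± 129 CPM in FG_ctl and 0.0181 in FG_CRISPRi, but its FG_ctl libraries were far apart, at 187 and 4.82 CPM. Of the other liver markers, APOA1 overlapped, at 505 and 764 CPM in FG_ctl and 582 and 500 in FG_CRISPRi, and ALB was at 0 in both groups. The part of these markers in the value of CYP26A1 was not tested. The other genes had overlapping groups, and the intervals were wide, such as -0.95 to 0.67 for CYP26B1, -0.81 to 0.54 for RARA and -1.85 to 1.49 for RDH10. CRABP2 had the narrowest, from -0.66 to 0.49.

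Whether the sgRNA effect differed between foregut and endoderm was tested as an interaction. With edgeR, 0 of 10 genes were called, beside 0.194% of 22708 genes (44 genes); limma voom and DESeq2 called 0. ALDH1A3 alone of the 10 had an unadjusted edgeR p under 0.05, beside 1870 of the 22708 genes. Its difference of effects was 1.79 on the log2 scale (SE 0.66, edgeR adjusted p = 0.509). The foregut libraries with the sgRNA held 0.617 and 2.18 CPM of ALDH1A3. Without FG_CRISPRi replicate 1 the value was 2.49 and was called (adjusted p = 0.0189). In the 3 lists of other pathway genes, 0 genes were called in any of these sgRNA comparisons by edgeR.

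**Figure D4:**
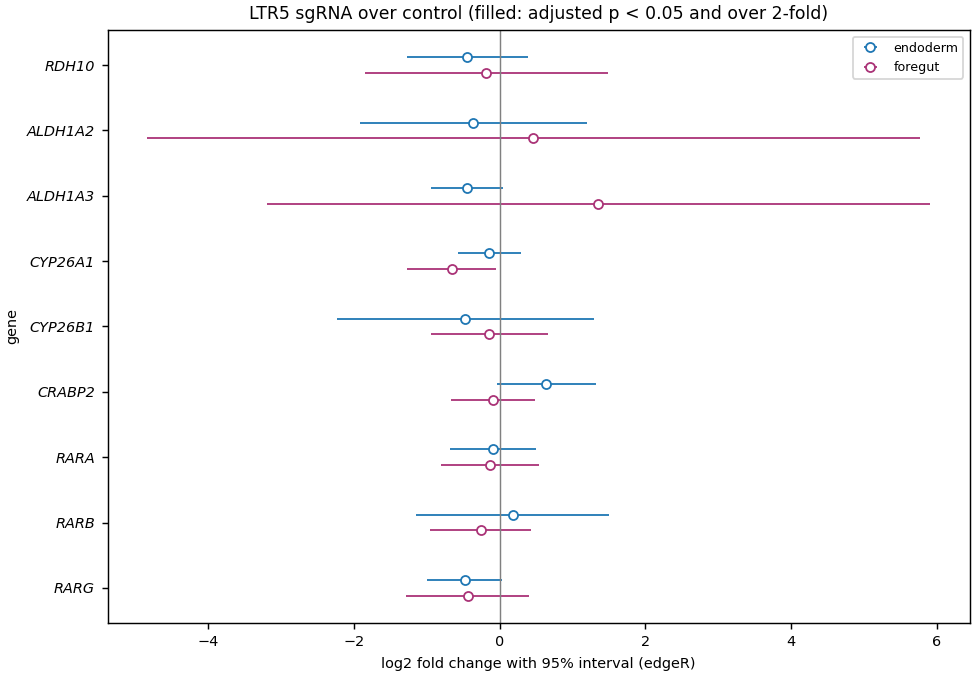
Log2 difference with against without the LTR5 sgRNA, with 95% intervals (x axis), for 9 of the genes (rows, without CYP26C1) in endoderm and in foregut. The intervals cross 0, except that of CYP26A1 in foregut, at -0.66 (-1.27 to -0.048), and none of the genes passed the edgeR test.

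In the gastruloids, the nuclei gave the levels of 8 of the 10 genes in cells of the growing axis; ALDH1A3 and CYP26C1 are not listed in that table. Filters on depth (1000 UMIs or more), on genes (200 or more) and on the mitochondrial share (25% or less) left 3422 nuclei, and the 3197 of these that reached 5000 UMIs were thinned to 5000 to decide which of TBXT, SOX2, TBX6, PCDH8 and PAX3 each contained, with 225 too shallow. Levels were then taken from full counts and summed over nuclei. TBXT marks the tail end and notochord, SOX2 neural and neuromesodermal cells, TBX6 presomitic mesoderm, PCDH8 the segmenting front and PAX3 dorsal somite and neural tube. The sets held 604 TBXT, 497 SOX2, 375 TBX6, 272 PCDH8 and 1626 PAX3 nuclei and overlap: 1826 nuclei (57.1%) were positive for 1 marker, 628 for 2, 84 for 3 and 10 for 4, and 649 for none. Among the PAX3 nuclei were 242 SOX2 nuclei (48.7% of that set) and 166 TBXT nuclei (27.5%). Their UMIs enter both sides of a ratio of these sets. Related markers were also summed, but each list holds a gene used to choose nuclei, so a high sum in its own set was partly fixed in advance. Axial markers summed to 1068 CPM in the TBXT set, against 295 in the SOX2 set and 101 in the PAX3 set. Segmenting markers summed to 1012 CPM in the PCDH8 set against 217 in the TBX6 set. Presomitic markers were at 936 CPM in the TBX6 set and 841 in the PCDH8 set. Paraxial markers were at 1054 CPM in the PAX3 set and 907 in the PCDH8 set. These last lists thus set neighbouring sets little apart, and sums without the choosing gene were not taken. All nuclei are from 1 preparation, so there is no test, and the 95% intervals (exact Poisson for levels, exact binomial for shares) cover counting error only.

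Of the synthesis genes, RDH10 stood highest in the PAX3 set and ALDH1A2 in the PCDH8 set. RDH10 was at 255 CPM (249 to 261) in the PAX3 set, against 72.1 (67.3 to 77.1) in the TBXT set, 68.6 in the TBX6 set, 71.6 in the PCDH8 set and 104 (97.5 to 111) in the SOX2 set. Nuclei positive for none of the 5 markers held 130 CPM (124 to 137). The ratio of PAX3 to TBXT nuclei was 3.54, and between 2.34 and 7.47 over 7 alternative ways of choosing nuclei.
ALDH1A2 was highest in the PCDH8 set, at 156 CPM (145 to 167), followed by 110 (106 to 114) in the PAX3 set, 86.6 (79.8 to 93.8) in the TBX6 set, 56.1 in the SOX2 set and 49.7 (45.7 to 53.8) in the TBXT set. The ratio of PCDH8 to TBXT nuclei was 3.14 (1.97 to 4.35 over the alternatives), and of PAX3 to TBXT nuclei 2.21 (1.40 to 2.87). The 2 synthesis genes thus had different peaks among the sets, RDH10 in the PAX3 set and ALDH1A2 in the PCDH8 set. In nuclei positive for 1 marker only, RDH10 stood at 305 CPM for PAX3 and 53.1 for PCDH8, and ALDH1A2 at 119 for PAX3 and 146 for PCDH8.
After thinning, a UMI of RDH10 was found in 56.3% (53.9 to 58.8) of PAX3 nuclei and in 15.7% (12.2 to 19.8) of TBX6 nuclei (76.9% and 35.5% unthinned), at median depths of 15680 and 17101 UMIs. For ALDH1A2 it was 36.4% (30.7 to 42.4) of PCDH8 nuclei and 14.5% (11.5 to 17.9) of SOX2 nuclei (62.1% and 31.0% unthinned, at median depths of 17866 and 17520 UMIs). None of the sets is known to lack these genes, so the share due to free RNA was not measured. Of the thinned nuclei with ALDH1A2, 55.0% also held RDH10, against 34.6% of those without it.

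Of the 8 genes, RDH10 and ALDH1A2 were more than 2-fold apart between the PAX3 and TBXT sets, both higher with PAX3, beside 12.1% of 17295 genes apart by that much in either direction. This count depends on how nuclei were chosen: ALDH1A2 fell under 2-fold in some alternatives, and CYP26A1, with a ratio of 0.775, was over 2-fold lower with PAX3 under another random thinning (0.305) and when 2 UMIs in full counts were asked for (0.390). In the other lists, RBP4, a retinol carrier, and DHRS3 were over 2-fold higher in TBXT nuclei among 13 uptake and enzyme genes, 0 of 11 binding proteins and receptors were apart by that much, and among 15 response genes MEIS1, MEIS2, TSHZ1 and NR2F2 were higher in PAX3 nuclei and RARRES2 in TBXT nuclei.

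The clearing enzymes were scarce in these nuclei. CYP26A1 stood at 8.21 CPM (6.49 to 10.3) in the SOX2 set and 8.49 (6.46 to 10.95) in the TBX6 set, at 2.80 in the TBXT set and 2.17 in the PAX3 set, and at 0.380 in the PCDH8 set, where only 2 UMIs were counted. The ratio of PAX3 to SOX2 nuclei was 0.264, and 0.142 to 0.544 over the alternatives. The levels against TBXT nuclei cannot be ordered: the ratio was 2.93 for SOX2 and 3.03 for TBX6, but between 1.04 and 7.83 and between 0.801 and 10.3 over the alternatives, which include another random thinning. The top 5 nuclei held 64.4% of the CYP26A1 UMIs of the TBX6 set and 48.5% of those of the TBXT set. CYP26B1 was between 0.380 and 2.57 CPM in every set. Beside bulk endoderm, where CYP26A1 was at 850 ± 205 CPM (SD, n = 3), these are levels of another assay and normalisation, and the distance between them was not tested.

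CRABP2 was highest in the SOX2 and TBX6 sets, at 296 CPM (285 to 307) in the former and 275 (263 to 288) in the latter, against 172 in the TBXT, 163 in the PCDH8 and 160 (155 to 165) in the PAX3 set. The ratio of PAX3 to SOX2 nuclei was 0.54, and 0.387 to 0.781 over the alternatives. Thinned nuclei that held RDH10 had a UMI of CRABP2 in 40.6% of cases, against 53.8% of nuclei without RDH10.
The receptors were low in every set. RARA lay between 4.18 and 6.62 CPM and RARB between 2.45 and 5.51 CPM over the 5 sets, with overlapping intervals for most pairs. RARG ran from 6.44 (5.53 to 7.46) in the PAX3 set to 11.8 (9.71 to 14.2) in the SOX2 set and 13.4 (10.8 to 16.4) in the TBX6 set, so that the PAX3 interval lay below those of SOX2 and TBX6. The ratio of PAX3 to SOX2 nuclei was 0.546 (counting interval 0.429 to 0.698), and 0.382 to 0.726 over the 7 alternatives. The interval of this ratio takes the sets as separate, although 48.7% of the SOX2 nuclei were in both. In nuclei positive for 1 marker only, RARG stood at 4.60 CPM (3.66 to 5.71) for PAX3. There it was at 12.05 (8.5 to 16.6) for SOX2 and 16.3 (12.3 to 21.1) for TBX6. After thinning, at most 6.13% of the nuclei of a set held a UMI of any given receptor (RARG in the TBX6 set).

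Peaks of open chromatin from the same preparation lay in each of the 10 genes, which span 4.4 to 768.6 kb. Peaks per gene were not counted over all genes, so the numbers below have no background. They were not adjusted for gene length. Among the 205374 ATAC-seq peaks, called over all nuclei together, 69 lay in RARB (768.6 kb long on GRCh38), 17 in ALDH1A2, 11 in ALDH1A3, 10 in RARA, 7 each in CYP26B1 and RARG, 4 in RDH10, 3 in CYP26C1, and 2 each in CYP26A1 and CRABP2. Of the 9 genes with promoter windows, CYP26C1 was the gene without a peak in any, while ALDH1A3, not listed among the expressed genes of the nuclei, had 1 in its window. The peak list has no heights and no nucleus of origin, so openness cannot be set against the marker sets.

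**Figure D5:**
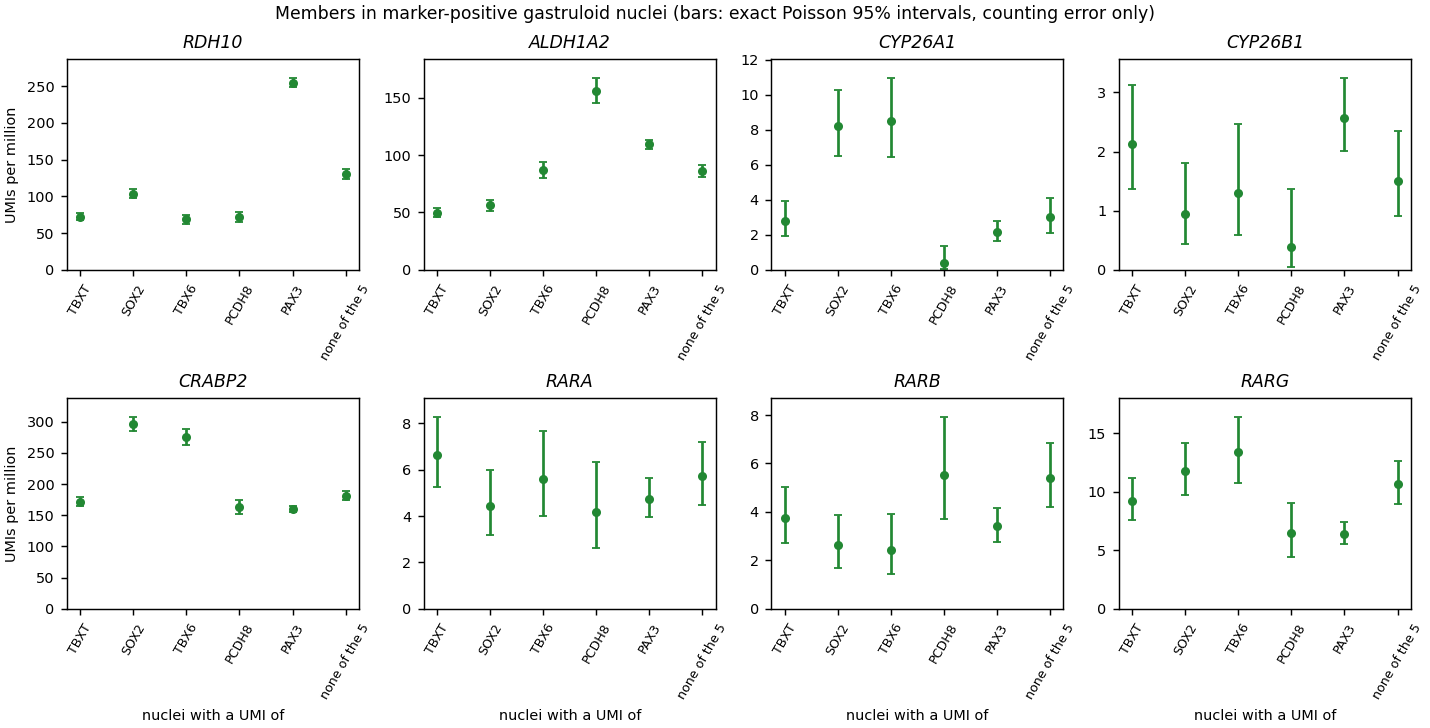
CPM with exact Poisson 95% intervals (y axes) of the 8 genes present in the gastruloid table, 1 panel a gene, in nuclei positive for TBXT, SOX2, TBX6, PCDH8, PAX3 or none of them (x axis). RDH10 is highest in the PAX3 set, ALDH1A2 in the PCDH8 set and CRABP2 in the SOX2 and TBX6 sets.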

How the data were processed

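Bulk values are raw counts per gene and per transposable element copy, made and deposited by the authors with HISAT2 and featureCounts from uniquely mapped reads on GRCh37 (hg19). Gastruloid values are raw UMI counts for each gene in each nucleus, with positions of ATAC-seq peaks, deposited as made by the authors with cellranger-arc 2.0.0 on GRCh38. The kit marks strand, but the strand setting of the counting and the annotation release were not given in the sources used here. Of 63677 gene IDs, 55665 had a symbol in the GENCODE annotation used here; the other 8012 held at most 0.526% of reads and stayed in every fit.

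Counts were tested with edgeR 4.0.16 in R 4.3.3 (quasi-likelihood, TMM, 2-sided), separately for the libraries of each comparison and over genes with at least 3 reads in 1 library. A call needed both a p under 0.05 after Benjamini-Hochberg adjustment and more than a 2-fold change. CPM values use TMM-scaled library totals, and levels per kilobase divide by annotated exon length. Alternatives were limma 3.58.1 (voom), DESeq2 1.42.0, other scalings, filters and thresholds, 1 fit over all 12 libraries, the replicate number as a block, and each library left out in turn. The package data.table (version 1.17.8) was used. The edgeR test was also run on simulated counts with 100 genes changed 2-fold and 100 changed 4-fold. Called of these were 36 and 97 for endoderm with against without sgRNA, 2 and 51 for foregut, and 4 and 47 for the interaction. With 2 or 3 libraries a group and at most 37152434 reads, precision at low levels is limited by counting, and 3 counts were taken as the floor.

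Nuclei were thinned with a fixed seed to choose marker sets; doublets were not called, and nuclei above the 98th percentile of UMIs (39354) were left out in an alternative. The text names all 10 genes, at most 3 called genes per other list and comparison (the largest changes, mean level 1 CPM or more), and the 3 genes of most similar profile for genes spanning over 2 on the log2(CPM + 1) scale. Some genes that this rule names are not reported here, but stay in the counts of their lists. The genes and lists were chosen with earlier results of these data known.

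Same-numbered libraries were not taken as pairs: over 14234 genes the correlation of their deviations was -0.041 to 0.007 in endoderm with and without sgRNA, 0.033 and 0.045 for endoderm with hESC, 0.144 to 0.176 in the 2 pairs of each step to foregut and -0.217 in foregut with and without sgRNA, and no label says that a number marks a shared culture, so the main fits have no block.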

Additional observations from a re-analysis of the deposited data

How the results depend on the processing

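Leaving out 1 library at a time gave 5 to 6 genes of the set called from hESC to endoderm, 5 to 6 in each step from endoderm to foregut, 0 in both sgRNA comparisons, and 0 to 1 in the interaction. There, ALDH1A3 made the count 1 without FG_CRISPRi replicate 1 and also at an unadjusted p under 0.05 with a fold over 2. In the nuclei, the genes over 2-fold apart between PAX3 and TBXT sets went from 2 to 1, RDH10 alone, when nuclei were marker-positive by 1 UMI in full counts, when thinned to 10000 UMIs and at 15% or less mitochondrial UMIs. It became 3, with CYP26A1 added and lower in the PAX3 set, under the second random thinning and when nuclei were positive by 2 UMIs in full counts. For single genes and bulk comparisons, 839 values kept their side of the threshold, 8 passed only under the alternative and 2 no longer passed. Direction was followed only for values called in the main fits, of which 0 turned. Values that were not called could change sign, such as RDH10 with against without sgRNA in foregut (-0.77 to 0.826). In the nuclei 16 values moved beyond their counting interval and 40 did not. With the replicate block the genes called were 6, 5, 5, 0, 0 and 0, as without it, and it changed no call of the set. Over all genes the block gave 10 calls in place of 7 for endoderm with against without sgRNA, 19 in place of 33 for foregut and 16 in place of 44 for the interaction. Crossing the numbers of the foregut groups gave 74 calls, of which 0 were of the set.

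Counts over all genes also moved. In endoderm with against without sgRNA, the 7 calls became 1 with limma voom, 47 with DESeq2, 186 with no filter, 1 with the stricter filter (10 reads in total and 1 CPM in 1 library) and 1 in 1 fit over all libraries. In foregut the 33 calls became 11 with limma voom, 9 with the stricter filter, and 209 in 1 fit over all libraries. The 44 interaction calls became 236 with DESeq2, 139 with no filter, 29 with the stricter filter and 89 in 1 fit. Without FG_CRISPRi replicate 1, which had the highest mitochondrial share (34.66%), they became 527 in foregut and 805 in the interaction, and over the other libraries left out 16 to 74 and 0 to 99; in endoderm they were 1 to 9. In FG_CRISPRi against DE_CRISPRi, the 5457 calls became 3470 without DE_CRISPRi replicate 2 and 8259 without FG_CRISPRi replicate 2. At an unadjusted p under 0.05 with a fold over 2, the counts with against without sgRNA were 550, 504 and, for the interaction, 1682. Upper-quartile scaling moved the median log2 change of all genes from -0.091 to 0.069 in FG_ctl against DE_ctl and from -0.137 to -0.034 in FG_CRISPRi against DE_CRISPRi, with the same genes of the set called. The causes of these shifts were not tested. Depth limits ALDH1A2, CYP26C1 and, before foregut, CYP26B1 and RARB.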
